A study of Mus musculus with 2 samples.

Results

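The cadherins and the protocadherins are cell surface proteins whose extracellular domains bind the same or a related molecule on the neighbouring cell in a calcium-dependent way. The members were every gene whose symbol begins with Cdh and a digit or with Pcdh, 92 of the 24130 genes in the files. By subfamily they were 5 classical type I and 13 classical type II cadherins, 5 atypical cadherins, 9 delta protocadherins, 3 other non-clustered protocadherins, and 14 alpha, 21 beta and 22 gamma protocadherins of the gene clusters on chromosome 18. RNA of dissociated hippocampal cells of male C57BL/6 mice, 6 months old per the labels, was measured in 2 libraries by the 10x method, which tags each captured RNA molecule with a unique molecular identifier (UMI). For the EMF_AuNPs library, gold nanoparticles (AuNPs) had been injected into the hippocampus and the mice were then kept between Helmholtz coils, a source of a uniform electromagnetic field (EMF), for 3 weeks. The Control library is labelled as saline. Whether Control mice were also kept between coils is unclear from the labelled protocol, and how many mice went into each library is not given in the sources used here.

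Classical cadherins carry a cytoplasmic tail that binds beta-catenin and p120-catenin and so ties the adherens junction to actin. Delta protocadherins have other tails, several of which bind regulators of actin. The clustered protocadherins are known for giving each neuron its own combination of surface isoforms. An alpha or gamma transcript joins 1 variable exon to constant exons shared by its whole cluster, and each beta gene is 1 exon with no shared part. In the hippocampus, cadherins are known from synapses, glial contacts and the blood-brain barrier.

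In EMF_AuNPs 19544686 UMIs were counted in 7003 barcodes (median depth 2310), and in Control 51091452 UMIs were counted in 21583 barcodes (median depth 1904), with 38 barcodes found in both. Of 6996 kept EMF_AuNPs cells, 5374 (76.8%) were placed in a cell class by marker genes, none of them a member, as were 17340 of 21425 kept Control cells (80.9%). Classes are called by the cell type of their marker list, and the 9 that reached 50 cells in both libraries were compared. Each of the 8 classes with a full marker list had all 8 markers detected in both libraries, and its own marker sum was the highest of the 9 classes. The other class, barcodes with at least 20% of UMIs from haemoglobin genes, is called haemoglobin-rich here. In a clustering made without the members, most astrocytes lay in cluster 8 in EMF_AuNPs (72.6%) and in cluster 3 in Control (85.1%). Oligodendrocytes lay in cluster 5 in EMF_AuNPs (85.9%) and cluster 0 in Control (76.3%), microglia in cluster 7 in EMF_AuNPs (89.6%) and cluster 1 in Control (90.0%), and endothelial cells in cluster 6 in EMF_AuNPs (90.6%) and cluster 2 in Control (85.3%). Most cells of each other class shared 1 cluster. Each group is 1 library, so differences could not be checked against replicates and none was tested.

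Among the 92 members, 47 had at least 100 UMIs over both libraries, 65 had at least 30, 23 had 1 to 29, and 4 had 0 (Pcdha3, Pcdha6, Pcdhac1 and Pcdhb1). Levels are given in CPM, the UMIs of a gene divided by all UMIs of its class and multiplied by 1000000. UMIs were not scaled to gene length, so levels are compared between classes and libraries and not between genes. Intervals are 95% intervals for counting error alone. In both libraries, 8 of the 47 members had a highest class whose Poisson interval lay above that of every other compared class. Those were Cdh2, Pcdh7, Pcdh10 and Pcdh17 in astrocytes, Pcdh9 in oligodendrocytes, Cdh5 in endothelial cells, Pcdh18 in pericytes and Cdh6 in smooth muscle cells.

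The promoters of 1 such member for each of 4 classes are shown because these genes mark where the family was expressed. They run from 250 bases before to 50 after the start and are RefSeq sequences of build GRCm38.p6, which matched 22 of the 92 members by symbol. Capitals mark the GC box GGGCGG or its reverse complement CCGCCC, the site of Sp1-type factors. The Pcdh10 window lies at chr3:45378148-45378447 on the plus strand, Pcdh9 at chr14:93890630-93890929, Pcdh18 at chr3:49757267-49757566 and Cdh6 at chr15:13173626-13173925, the last 3 on the minus strand.
Pcdh10: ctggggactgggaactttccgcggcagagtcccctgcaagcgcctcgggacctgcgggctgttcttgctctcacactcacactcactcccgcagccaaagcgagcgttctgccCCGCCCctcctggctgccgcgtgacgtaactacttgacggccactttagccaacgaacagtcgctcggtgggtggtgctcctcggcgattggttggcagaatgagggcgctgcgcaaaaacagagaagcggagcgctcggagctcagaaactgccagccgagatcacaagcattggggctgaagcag
Pcdh9: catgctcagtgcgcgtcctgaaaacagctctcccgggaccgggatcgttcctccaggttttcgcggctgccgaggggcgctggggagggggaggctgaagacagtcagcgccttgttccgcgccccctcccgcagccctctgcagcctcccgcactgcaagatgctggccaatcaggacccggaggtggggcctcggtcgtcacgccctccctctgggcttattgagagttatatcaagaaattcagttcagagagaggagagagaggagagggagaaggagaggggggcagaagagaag
Pcdh18: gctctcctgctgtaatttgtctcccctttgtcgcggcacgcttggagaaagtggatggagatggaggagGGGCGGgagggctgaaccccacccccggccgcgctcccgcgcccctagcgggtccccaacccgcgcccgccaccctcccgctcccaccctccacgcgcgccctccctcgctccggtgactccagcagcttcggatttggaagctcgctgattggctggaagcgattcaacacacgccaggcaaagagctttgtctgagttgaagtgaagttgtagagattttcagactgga
Cdh6: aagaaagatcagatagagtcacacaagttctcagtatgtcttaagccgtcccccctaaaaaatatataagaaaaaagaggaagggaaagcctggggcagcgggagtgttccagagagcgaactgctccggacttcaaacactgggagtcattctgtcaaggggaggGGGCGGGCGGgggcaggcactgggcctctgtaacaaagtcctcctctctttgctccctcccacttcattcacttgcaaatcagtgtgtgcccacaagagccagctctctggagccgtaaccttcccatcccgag
The GC box was found once in the Pcdh10 and Pcdh18 windows, at 2 overlapping positions in Cdh6 and not in Pcdh9, and 35.7% of all 32851 promoters of this length held at least 1. The core ACAAAG of SOX sites, on either strand, was found at 2 positions in Pcdh18, at 1 in Cdh6 and in neither of the other windows, against 18.7% of all promoters. No window held TATAAA, which 13.6% of all promoters held. GC content was 62.3% in Pcdh10, 62.7% in Pcdh9, 63.0% in Pcdh18 and 53.0% in Cdh6.

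Among the classical cadherins, different genes had their highest level in endothelial cells, astrocytes, smooth muscle cells and the choroid plexus. Cdh5, the VE-cadherin of endothelial junctions, had 1009 UMIs in 1095 EMF_AuNPs endothelial cells (332 CPM, interval 312 to 353) and 2030 in 3089 Control endothelial cells (312 CPM, 298 to 326). The next compared class was the haemoglobin-rich barcodes, with 46.0 CPM of Cdh5 in EMF_AuNPs and 62.9 CPM in Control. After thinning each cell to 1000 UMIs, Cdh5 was seen in 28.5% of EMF_AuNPs and 25.6% of Control endothelial cells. Astrocytes, taken as background, had 0.186% in EMF_AuNPs and 0.528% in Control, and the source of these UMIs was not tested. Without thinning the endothelial shares were 52.4% in EMF_AuNPs and 42.2% in Control. In both libraries the endothelial level of Cdh5 was above that of every other compared class.

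Cdh2, the N-cadherin of neural and glial junctions, had 137 CPM in EMF_AuNPs astrocytes (125 to 150) and 183 CPM in Control astrocytes (171 to 195). Its next class was the pericytes, with 69.3 CPM of Cdh2 in EMF_AuNPs and 131 CPM in Control. Cdh6, the K-cadherin, had 42 UMIs in 142 EMF_AuNPs smooth muscle cells (99.6 CPM, 71.8 to 135) and 39 UMIs in 237 Control smooth muscle cells (77.6 CPM, 55.2 to 106). Outside smooth muscle, Cdh6 was highest in oligodendrocytes, with 11.3 CPM in EMF_AuNPs and 12.1 CPM in Control.

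Cdh3, the P-cadherin of epithelia, was found in the choroid plexus, the epithelium that secretes cerebrospinal fluid, with 48 UMIs in 142 EMF_AuNPs cells and 60 UMIs in 418 Control cells. The second class held 0.836 CPM of Cdh3 in EMF_AuNPs and 0.154 CPM in Control. Cdh13, the T-cadherin that is anchored by a lipid and has no tail, was highest in endothelial cells, with 20.4 CPM in EMF_AuNPs and 20.7 CPM in Control. Cdh20, Cdh10, Cdh11 and Cdh19, all type II, were highest in astrocytes or oligodendrocytes among the compared classes. Cdh20 had 46.3 CPM in EMF_AuNPs and 25.3 CPM in Control astrocytes, and 23.8 CPM in EMF_AuNPs and 26.1 CPM in Control oligodendrocytes.

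In classes too small to compare, Cdh11 had 24 UMIs in 29 EMF_AuNPs fibroblasts (290 CPM, 186 to 431) and 23 UMIs in 59 Control fibroblasts (187 CPM, 118 to 280), above its astrocyte levels of 49.8 CPM in EMF_AuNPs and 55.5 CPM in Control. Cdh11 is known as the mesenchymal OB-cadherin. Cdh26, an atypical cadherin, had 54.7 CPM in EMF_AuNPs and 56.3 CPM in Control ependymal cells. Cdh4, the R-cadherin, had 5 UMIs in 10 EMF_AuNPs Cajal-Retzius cells (206 CPM, 66.9 to 481) and 24 UMIs in 72 Control Cajal-Retzius cells (176 CPM, 113 to 262).

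Delta protocadherins gave most of the family's UMIs, 9267 in EMF_AuNPs and 27165 in Control. Pcdh9 had 2442 UMIs in 1172 EMF_AuNPs oligodendrocytes (626 CPM, 601 to 651) and 10120 UMIs in 6414 Control oligodendrocytes (636 CPM, 623 to 648). Astrocytes came next for Pcdh9, with 224 CPM in EMF_AuNPs and 202 CPM in Control. After thinning, 45.9% of EMF_AuNPs and 46.2% of Control oligodendrocytes had a Pcdh9 UMI, against 2.90% of EMF_AuNPs and 0.976% of Control choroid plexus cells. Without thinning, Pcdh9 was seen in 79.8% of EMF_AuNPs and 73.2% of Control oligodendrocytes.

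Pcdh10, a delta protocadherin known to act on actin through the WAVE complex, had 239 CPM in EMF_AuNPs astrocytes (223 to 256) and 296 CPM in Control astrocytes (282 to 312). In oligodendrocytes, the next class, Pcdh10 had 51.5 CPM in EMF_AuNPs and 74.4 CPM in Control. Pcdh7 had 174 CPM in EMF_AuNPs and 159 CPM in Control astrocytes, with the choroid plexus second. Pcdh17, which also binds the WAVE complex, had 140 CPM in EMF_AuNPs and 161 CPM in Control astrocytes, with oligodendrocytes second. Astrocytes were thus the top class among those compared for 3 delta protocadherins in both libraries.

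Pcdh18 had 93 UMIs in 166 EMF_AuNPs pericytes (322 CPM, 260 to 395) and 137 UMIs in 390 Control pericytes (267 CPM, 224 to 316), with smooth muscle next at 49.8 CPM in EMF_AuNPs and 39.8 CPM in Control. Pcdh19, whose human gene is known from an X-linked epilepsy, was highest in pericytes among the compared classes, at 65.9 CPM in EMF_AuNPs (39.7 to 103) and 76.0 CPM in Control (54.1 to 104). Endothelial cells came next with 47.7 CPM of Pcdh19 in EMF_AuNPs and 48.7 CPM in Control. Pcdh12, a non-clustered protocadherin of endothelial cells, had 8.22 CPM in EMF_AuNPs and 10.9 CPM in Control endothelial cells, below the 13.9 CPM of EMF_AuNPs pericytes (4 UMIs) and the 21.4 CPM of Control pericytes (11 UMIs). In 108 Control excitatory neurons Pcdh17 had 305 CPM, Pcdh9 294 CPM, Pcdh19 113 CPM and Pcdh8, an activity-regulated protocadherin, 98.0 CPM. In EMF_AuNPs 7 cells were placed in this class, with 2 to 5 UMIs of each of these genes, so neurons were not compared.

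**Figure D1:**
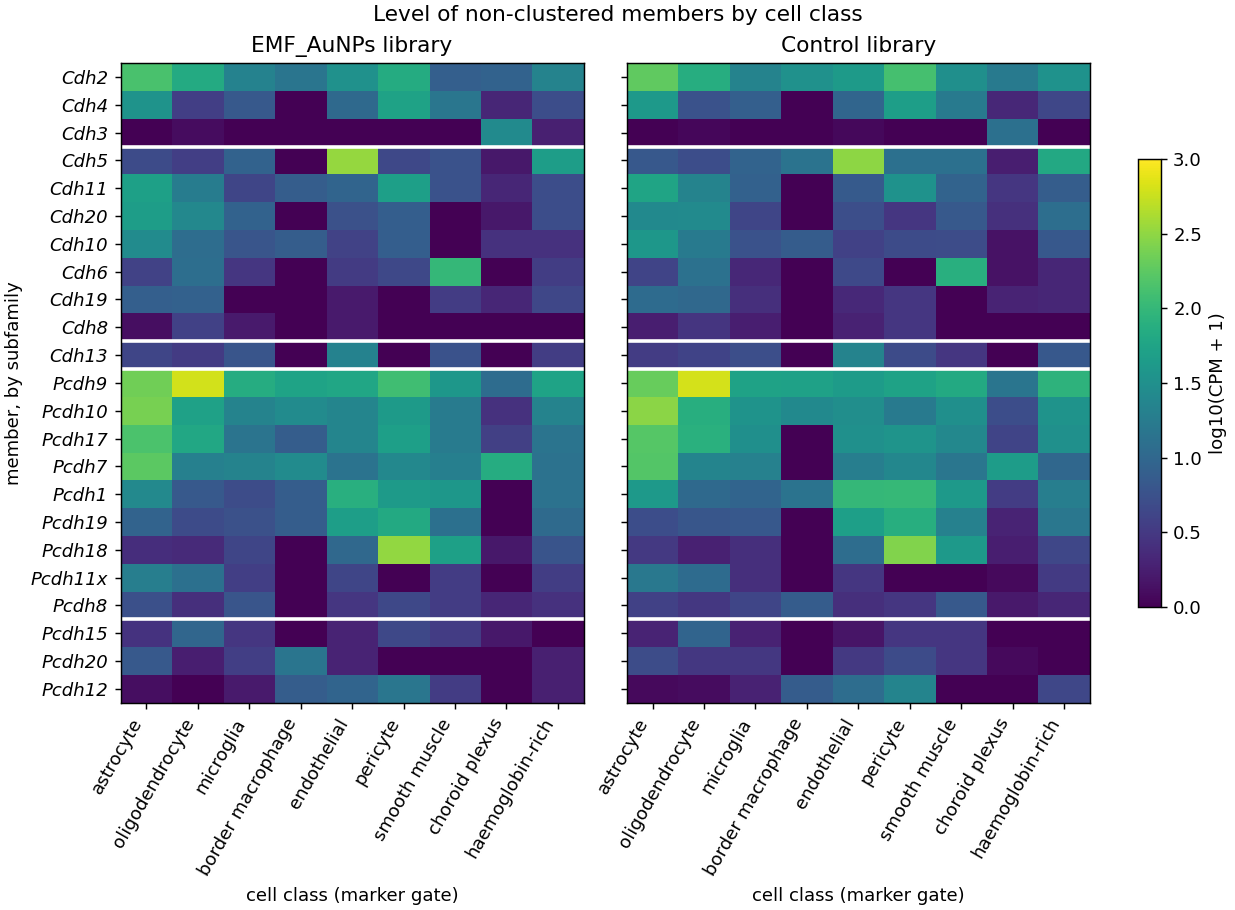
Level of the 23 non-clustered members with at least 100 UMIs, as log10 of CPM plus 1 (colour), in 9 cell classes (columns), with the EMF_AuNPs library on the left and the Control library on the right. White lines part the subfamilies from top to bottom: classical type I, classical type II, atypical, delta and other non-clustered. Pcdh9 stands out in oligodendrocytes, Cdh5 in endothelial cells, Pcdh18 in pericytes and Cdh6 in smooth muscle in both panels.

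Gene and class pairs were compared where a member had at least 30 UMIs in a class over both libraries, which held for 138 of 828 pairs and 49 members. Ratios are EMF_AuNPs over Control on the log2 scale after adding 1 CPM to both. Their exact conditional binomial intervals use the UMIs with nothing added, so they need not be centred on the ratio. Differences of 1.5-fold or more are called higher or lower. By that rule 9 of the 138 pairs were higher in EMF_AuNPs and 38 were lower. Over all genes, 14.2% of 69235 pairs were higher and 11.7% were lower, against 6.52% and 27.5% of the members' pairs. The gamma protocadherins gave 22 of the 38 lower pairs. The counts of lower pairs by subfamily were 22 of 35 in the gamma, 0 of 18 in the beta, 10 of 42 in the delta, 4 of 13 in the type I and 1 of 22 in the type II subfamily. The counts of higher pairs in the same order were 1, 3, 3, 1 and 1.

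**Figure D2:**
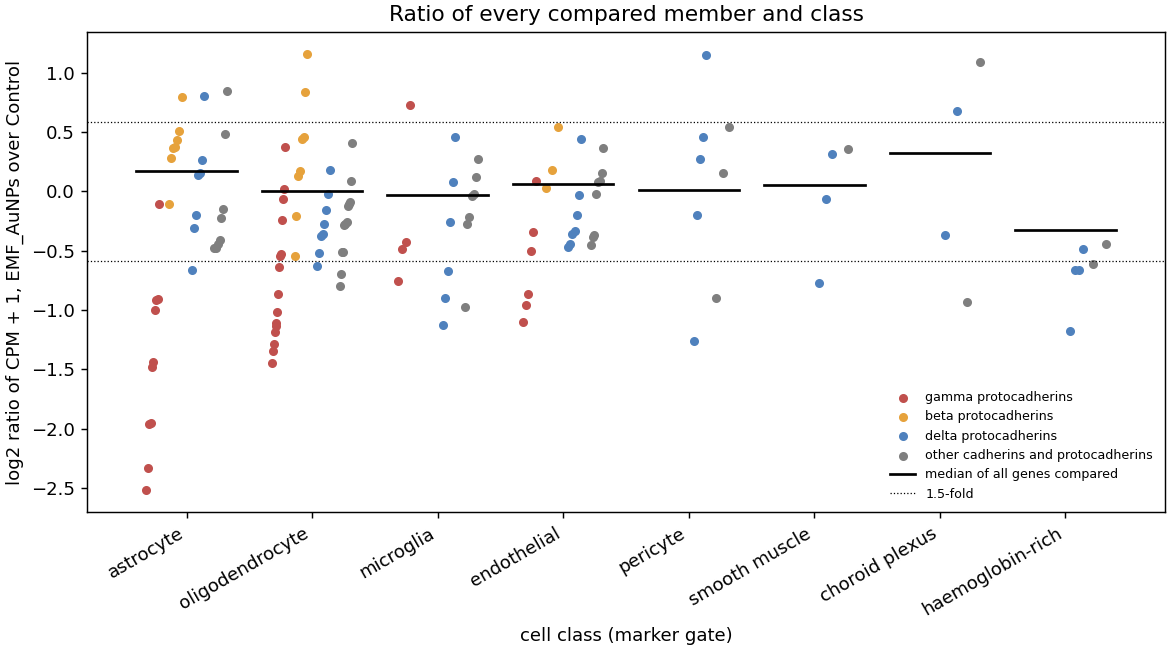
Log2 ratio of CPM plus 1, EMF_AuNPs over Control (vertical axis), for each of the 138 compared pairs of a member and a class (points, coloured by subfamily) in 8 classes, with the median of all genes compared in the class (black line) and 1.5-fold in either direction (dotted). Border macrophages had no compared member and are not drawn. In astrocytes 9 of 10 gamma protocadherins lie below the lower dotted line.

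A member that was high only in Control could pass the filter through that library, so the gamma cluster was also summed over all 22 members with no filter. In astrocytes the 22 genes had 168 UMIs in EMF_AuNPs (49.5 CPM, 42.3 to 57.6) and 718 UMIs in Control (142 CPM, 132 to 152). The log2 ratio was -1.50 (-1.77 to -1.27), 2.86-fold lower in EMF_AuNPs, where the median of all genes in astrocytes was 0.17. All 22 gamma genes had a lower CPM in EMF_AuNPs astrocytes than in Control astrocytes. Of the 10 compared there, 9 were lower by at least 1.5-fold, against 9.08% of all genes in astrocytes.

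Pcdhga5 had 9 UMIs in EMF_AuNPs astrocytes (2.65 CPM) and 101 UMIs in Control astrocytes (19.9 CPM), a log2 ratio of -2.52 (-4.08 to -1.93). Pcdhga12 had 9 UMIs in EMF_AuNPs and 88 UMIs in Control astrocytes, a log2 ratio of -2.33 (-3.89 to -1.72). Pcdhga7 had 9 UMIs in EMF_AuNPs and 67 UMIs in Control astrocytes, with -1.96 (-3.51 to -1.31). These are A-type isoforms, which differ in the variable exon that encodes the extracellular part. The C-type isoform Pcdhgc3, at the far end of the cluster, had 38 UMIs in EMF_AuNPs and 111 UMIs in Control astrocytes, a smaller log2 ratio of -0.91 (-1.54 to -0.42). Pcdhga2, near the front, had 14 UMIs in EMF_AuNPs and 23 UMIs in Control and a log2 ratio of -0.11 (-1.21 to 0.88), so a difference of Pcdhga2 was not detectable at this depth.

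In oligodendrocytes the gamma sum was 34.6 CPM in EMF_AuNPs (135 UMIs, 29.0 to 41.0) and 74.2 CPM in Control (1181 UMIs, 70.0 to 78.5), a log2 ratio of -1.08 (-1.37 to -0.84). The CPM of 20 of the 22 gamma genes was lower in EMF_AuNPs oligodendrocytes, and 4 of the 22 had no UMI there. Of 15 compared, 9 were lower, against 9.75% of all genes in oligodendrocytes. Pcdhga7 had 11 UMIs in EMF_AuNPs and 150 UMIs in Control oligodendrocytes, a log2 ratio of -1.45 (-2.77 to -0.86). Pcdhga5 had 19 UMIs in EMF_AuNPs and 221 UMIs in Control, with -1.34 (-2.27 to -0.83). Pcdhgb6 had 4 UMIs in EMF_AuNPs and 63 UMIs in Control, with -1.29 (-3.87 to -0.52). Pcdhga6 did not share this, with 5.89 CPM in EMF_AuNPs and 6.22 CPM in Control and a log2 ratio of -0.07 (-0.80 to 0.59).

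In endothelial cells the gamma sum was 56.2 CPM in EMF_AuNPs and 73.2 CPM in Control, a log2 ratio of -0.38 (-0.64 to -0.13) that is short of 1.5-fold. With cells thinned to 1000 UMIs the log2 ratio was -0.13 (-0.55 to 0.27), and where no second class could have 2 markers it was 0.03 (-0.88 to 0.82). Pcdhga10 had a log2 ratio of -1.10 (-2.25 to -0.40) there, with 13 UMIs in EMF_AuNPs and 67 in Control, Pcdhga5 had -0.87 (-1.91 to -0.17) and Pcdhga12 had -0.96 (-3.07 to 0.06). Those 3 of 6 were the lower ones, against 8.49% of all genes in endothelial cells, and 12 of the 22 gamma genes had a lower CPM. In microglia the sum was 38.8 CPM in EMF_AuNPs and 49.8 CPM in Control, a log2 ratio of -0.35 (-0.79 to 0.05). With clusters in place of the marker classes the microglial log2 ratio was -0.54 (-0.95 to -0.17), from 65 UMIs in EMF_AuNPs and 372 in Control, and with cells thinned to 1000 UMIs it was 0.16 (-0.46 to 0.74). Pericytes had 118 CPM in EMF_AuNPs and 97.4 CPM in Control, with an interval of -0.40 to 0.93. Choroid plexus cells had 12.6 CPM in EMF_AuNPs and 11.2 CPM in Control. Differences in pericytes and the choroid plexus were not detectable at this depth, and the difference between classes was not tested.

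**Figure D3:**
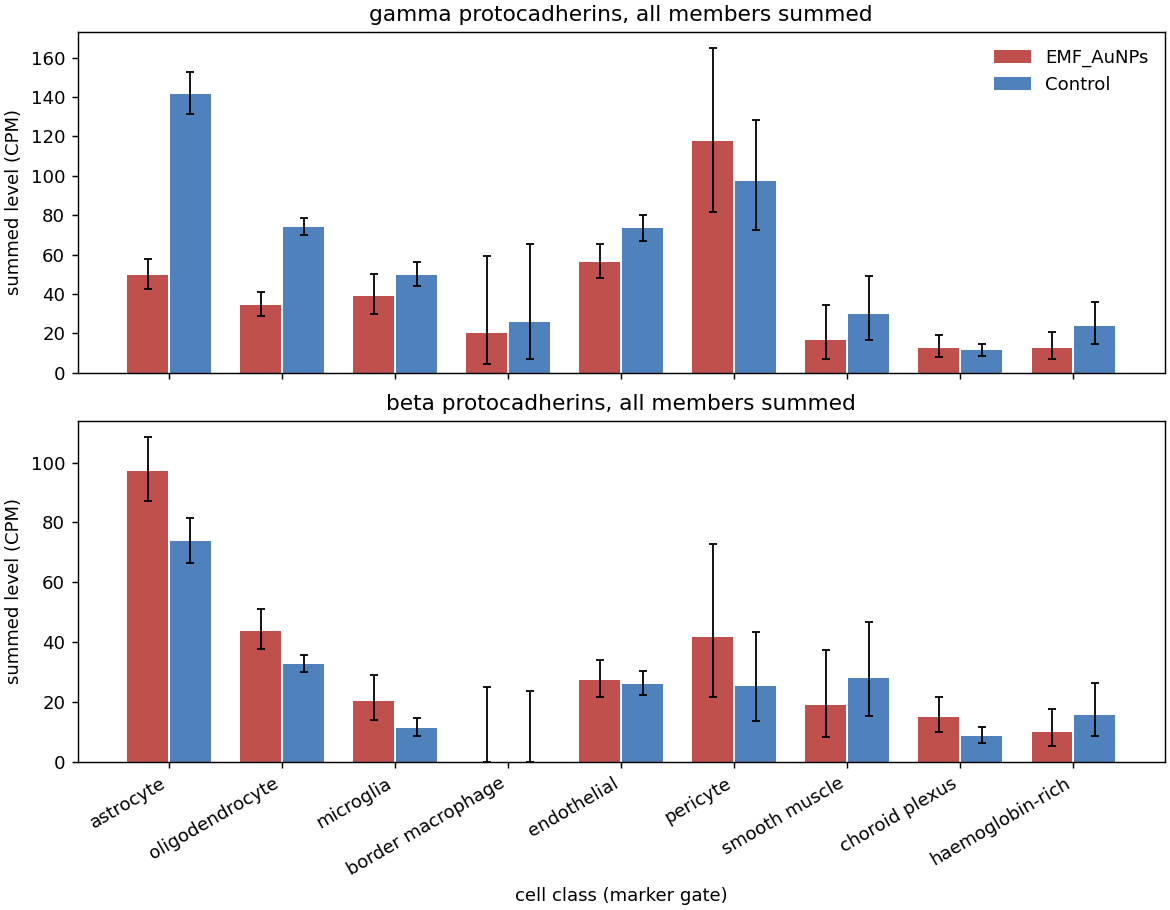
Summed level in CPM (vertical axes, from 0) of the 22 gamma protocadherins (top) and the 21 beta protocadherins (bottom) in 9 cell classes, with EMF_AuNPs (red) left of Control (blue) and exact 95% Poisson intervals as error bars. The gamma bars of astrocytes (49.5 CPM in EMF_AuNPs, 142 CPM in Control) and oligodendrocytes (34.6 CPM in EMF_AuNPs, 74.2 CPM in Control) have intervals that do not overlap. The same holds for endothelial cells (56.2 CPM in EMF_AuNPs, 73.2 CPM in Control). The beta bars are taller in EMF_AuNPs in astrocytes, oligodendrocytes, microglia, endothelial cells, pericytes and the choroid plexus.

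The gamma genes lie in 1 row on chromosome 18 at chr18:37661793-37841873 (GRCm38, GENCODE vM21, plus strand), from Pcdhga1 to Pcdhgc5. In all cells of a library together, the log2 ratio was 0.07 for Pcdhga1, 0.21 for Pcdhga2 and 0.02 for Pcdhga6, and -1.36 for Pcdhga5, -1.11 for Pcdhga7, -0.95 for Pcdhga10 and -1.31 for Pcdhga12. Of 21 compared gamma genes 7 were lower and 0 higher, against 7.21% and 9.90% of all genes in all cells. Ratios over all cells also depend on the mix of classes, which differed between the libraries. Pcdhga5, Pcdhga7 and Pcdhga12 lay between genes not called lower at 1.5-fold, and Pcdhgb6, Pcdhga10, Pcdhgb7 and Pcdhga11 followed each other. The neighbours of Pcdhga12 were also below 0. Pcdhgb8 had a log2 ratio of -0.54 (-3.08 to -0.33), with 6 UMIs in EMF_AuNPs and 46 in Control. Pcdhgc3 had -0.47 (-0.95 to -0.20). The annotation gives all 22 gamma genes a shared end, and 27.8% to 66.8% of the exonic bases of each gamma gene were shared with another member. A read that lies within shared exons cannot be assigned to 1 gamma gene, and how the counting treated such reads is not given in the sources used here.

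**Figure D4:**
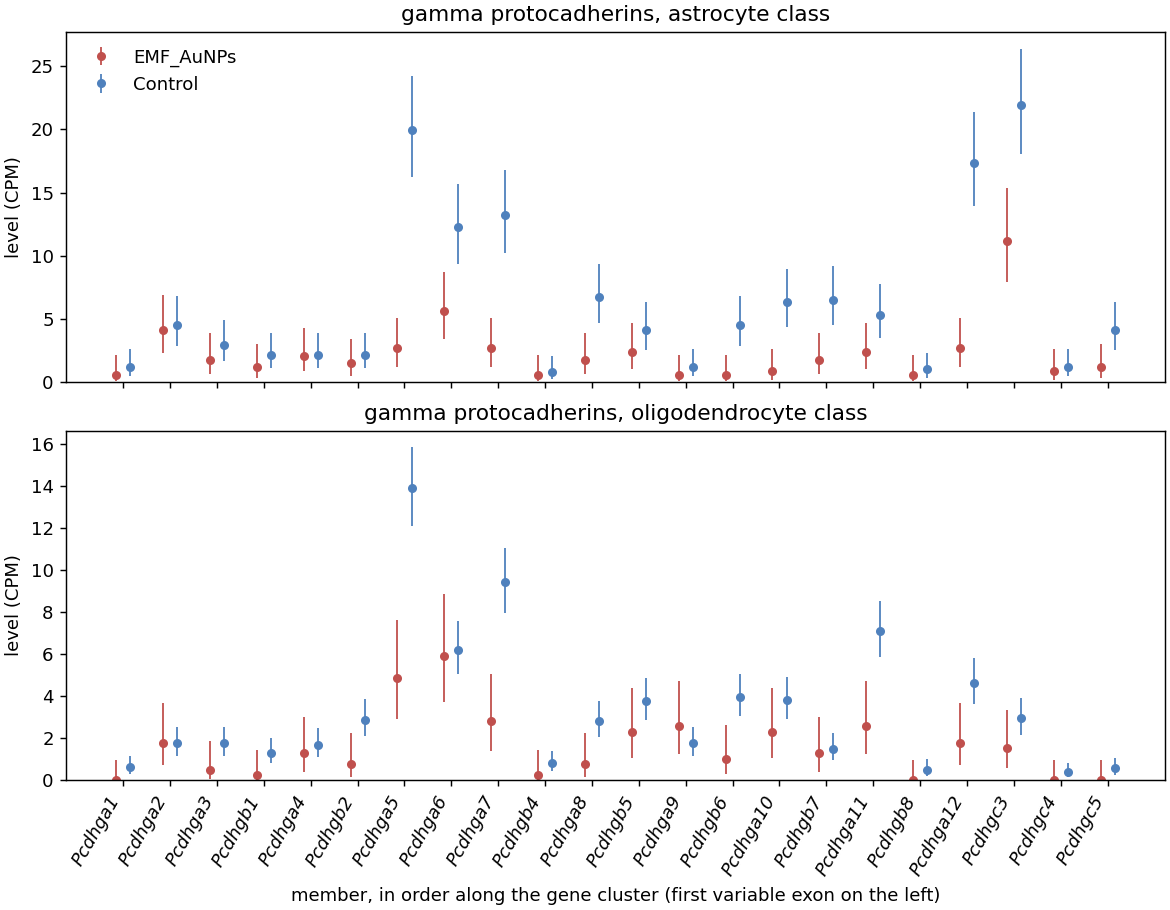
Level in CPM (vertical axes, from 0) of each of the 22 gamma protocadherins in order along the gene cluster, in astrocytes (top) and oligodendrocytes (bottom), with EMF_AuNPs (red) left of Control (blue) and exact 95% Poisson intervals. In astrocytes every red point lies below its blue one, with Pcdhga5 at 2.65 CPM in EMF_AuNPs and 19.9 CPM in Control, and in oligodendrocytes Pcdhga6 is at 5.89 CPM in EMF_AuNPs and 6.22 CPM in Control.

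Depth differed between the libraries, so shares of cells were compared after thinning to 1000 UMIs, which kept 1073 of 1265 EMF_AuNPs astrocytes and 2274 of 2817 Control astrocytes. A UMI of any gamma gene was then seen in 4.38% of EMF_AuNPs astrocytes (47 of 1073) and 13.7% of Control astrocytes (311 of 2274), a difference of -9.30 percentage points (Newcombe interval -11.1 to -7.35). In oligodendrocytes the shares were 2.73% in EMF_AuNPs and 6.98% in Control, a difference of -4.25 points (-5.30 to -2.95). Haemoglobin-rich barcodes, taken as background, had 1.18% in EMF_AuNPs and 2.95% in Control. Haemoglobin genes held 580185 CPM of that class in EMF_AuNPs and 499457 CPM in Control. Fewer of the 1000 UMIs were thus left for other genes, and this background is not on the scale of the astrocyte shares. Without thinning the astrocyte shares were 11.8% in EMF_AuNPs, at a median depth of 2622 UMIs, and 21.7% in Control, at a median depth of 1539 UMIs. Of 149 EMF_AuNPs astrocytes with a gamma UMI, 17 had at least 2, and in 15 of these the UMIs came from at least 2 gamma genes. Of 612 such Control astrocytes 93 had at least 2, and in 79 of these they came from at least 2 genes.

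Markers of excitatory neurons were also lower in EMF_AuNPs. All 8 were detected in astrocytes of both libraries, 7 of them at a lower CPM in EMF_AuNPs, and they summed to 93.2 CPM in EMF_AuNPs and 255 CPM in Control, a log2 ratio of -1.44. In oligodendrocytes all 8 had a lower CPM in EMF_AuNPs, 1 was at 0 there, and the sums were 119 CPM in EMF_AuNPs and 279 CPM in Control. Over the compared classes these sums ran from 17.6 to 194 CPM in EMF_AuNPs and from 32.0 to 364 CPM in Control, and they were lower in EMF_AuNPs in all 9. The log2 ratio of the neuron marker sum was -1.44 in microglia, where that of the gamma sum was -0.35, and -1.01 in endothelial cells, where that of the gamma sum was -0.38. It was -0.91 in pericytes and -0.83 in the choroid plexus, where the gamma sums had log2 ratios of 0.27 and 0.16. The gamma sum was 69.0 CPM in 108 Control excitatory neurons (19 UMIs, 41.5 to 108), below the 142 CPM of Control astrocytes. Haemoglobin genes moved the other way, with 5635 CPM in EMF_AuNPs and 1504 CPM in Control astrocytes. The part of free RNA in the gamma result was not tested.

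Within cluster 4, named astrocyte and holding 965 EMF_AuNPs and 1115 Control cells, the gamma sum was 43.4 CPM in EMF_AuNPs and 99.1 CPM in Control, a log2 ratio of -1.17 (-1.80 to -0.61). Within cluster 5, named oligodendrocyte with 1029 EMF_AuNPs and 850 Control cells, it was 35.4 CPM in EMF_AuNPs and 77.1 CPM in Control, a log2 ratio of -1.10 (-1.47 to -0.78). Of these cluster 4 cells, whose median depth was 707 UMIs, 289 in EMF_AuNPs and 259 in Control were placed among the astrocytes by the markers. Other clusters shared by both libraries varied. The log2 ratio was -0.61 in cluster 7 (-1.36 to 0.16, microglia), 0.25 in cluster 10 (-0.41 to 0.92, choroid plexus), 0.14 in cluster 12 (-0.46 to 0.73, pericyte) and -1.93 in cluster 9 (-3.21 to -0.96), which had no name and held 203 EMF_AuNPs and 702 Control cells. In cluster 9 the gamma sum was 27.8 CPM in EMF_AuNPs (8 UMIs) and 109 CPM in Control (151 UMIs). Its top 50 genes held 2 Cajal-Retzius markers, where a name needed 3. Among its top genes were Meg3, Snhg11, Syt1, Grin2b and Reln.

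The beta protocadherins, upstream of the gamma genes on the same chromosome, had higher sums in EMF_AuNPs in most compared classes. Their 21 genes summed to 97.3 CPM in EMF_AuNPs astrocytes (330 UMIs, 87.1 to 108) and 73.6 CPM in Control astrocytes (373 UMIs, 66.3 to 81.5), a log2 ratio of 0.40 (0.18 to 0.62). The median log2 ratio of all genes in astrocytes was 0.17. In oligodendrocytes the sums were 43.8 CPM in EMF_AuNPs and 32.8 CPM in Control, with 0.41 (0.16 to 0.67). In microglia they were 20.4 CPM in EMF_AuNPs (31 UMIs) and 11.3 CPM in Control (59 UMIs), with 0.80 (0.18 to 1.51). The CPM was higher in EMF_AuNPs for 13 and lower for 7 of 20 beta genes seen in astrocytes, and for 12 and 8 of 20 in oligodendrocytes. In haemoglobin-rich barcodes the beta sum was 10.0 CPM in EMF_AuNPs and 15.7 CPM in Control, with -0.60 (-1.89 to 0.57). The median of all genes in that class was -0.32. In smooth muscle cells the beta sum was 19.0 CPM in EMF_AuNPs and 27.9 CPM in Control, with -0.53 (-2.01 to 0.80). In border macrophages no beta UMI was counted, and the Poisson upper limits were 24.9 CPM in EMF_AuNPs and 23.6 CPM in Control.

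Of single beta genes, Pcdhb16 had 31 UMIs in EMF_AuNPs oligodendrocytes (7.95 CPM) and 48 UMIs in Control oligodendrocytes (3.01 CPM), a log2 ratio of 1.16 (0.70 to 2.08). Pcdhb17 had 18 UMIs in EMF_AuNPs oligodendrocytes and 34 in Control, with 0.84 (0.20 to 1.98), and 21 UMIs in EMF_AuNPs astrocytes and 16 in Control, with 0.79 (-0.04 to 2.01). Higher pairs made up 8.13% of all genes in oligodendrocytes and 18.7% in astrocytes. After thinning, 4.92% of EMF_AuNPs and 3.05% of Control oligodendrocytes had a beta UMI. The 14 alpha genes had 18 UMIs in EMF_AuNPs and 53 in Control in all, and none was compared.

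Outside the clusters most levels lay within 1.5-fold. Lower pairs were 23.8% of 42 delta, 30.8% of 13 type I and 4.55% of 22 type II pairs, against 11.7% of all genes' pairs. Higher pairs were 7.14%, 7.69% and 4.55% in that order, against 14.2%. In the atypical subfamily 0 of 4 pairs were lower and in the other non-clustered subfamily 1 of 4, with 0 higher in both. In endothelial cells Cdh5 had a log2 ratio of 0.09 (-0.02 to 0.20) and Pcdh1, 77.3 CPM in EMF_AuNPs and 97.5 CPM in Control, had -0.33 (-0.56 to -0.12). In oligodendrocytes Pcdh9 had -0.02 (-0.09 to 0.04) and Cdh2, 67.7 CPM in EMF_AuNPs and 73.0 CPM in Control, had -0.11 (-0.31 to 0.08). By counting error alone, the intervals of Cdh5, Pcdh9 and Cdh2 include 0 and that of Pcdh1 lies below 0. With 1 library per group they do not bound a difference between conditions. In astrocytes Pcdh10 had -0.31 (-0.44 to -0.19) and Pcdh9 had 0.15 (0.01 to 0.29).

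Cdh20 was the higher classical cadherin of astrocytes, with 157 UMIs in EMF_AuNPs (46.3 CPM, 39.3 to 54.1) and 128 UMIs in Control (25.3 CPM, 21.1 to 30.0). The log2 ratio was 0.85 (0.53 to 1.22), 1.80-fold. After thinning, 4.38% of EMF_AuNPs and 2.95% of Control astrocytes had a Cdh20 UMI, against 0.524% of EMF_AuNPs and 0.424% of Control microglia. In oligodendrocytes Cdh20 had a log2 ratio of -0.13 (-0.47 to 0.20). The delta protocadherin Pcdh1 was lower in astrocytes, with 24.8 CPM in EMF_AuNPs and 39.9 CPM in Control and a log2 ratio of -0.67 (-1.07 to -0.31).

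In pericytes Pcdh18 had a log2 ratio of 0.27 (-0.12 to 0.66). Cdh2 was lower there, with 20 UMIs in EMF_AuNPs (69.3 CPM) and 67 UMIs in Control (131 CPM), a log2 ratio of -0.90 (-1.71 to -0.17). Pcdh1 had 12 UMIs in EMF_AuNPs pericytes (41.6 CPM) and 52 UMIs in Control pericytes (101 CPM), a log2 ratio of -1.26 (-2.33 to -0.36). These levels rest on 166 EMF_AuNPs and 390 Control cells, and 14.9% of all genes compared in pericytes were lower and 14.9% higher. In smooth muscle Cdh6 had a log2 ratio of 0.36 (-0.30 to 1.03) and Pcdh1 had -0.07 (-1.11 to 0.95).

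In the choroid plexus Cdh3 had 26.4 CPM in EMF_AuNPs (19.5 to 35.0) and 11.8 CPM in Control (9.04 to 15.2), a log2 ratio of 1.09 (0.58 to 1.73). Pcdh7 had 130 UMIs in EMF_AuNPs (71.5 CPM) and 225 UMIs in Control (44.4 CPM), with 0.67 (0.36 to 1.00). All genes compared in this class had a median log2 ratio of 0.32, and 30.4% of them were higher, so Pcdh7 lay 0.35 above the median and Cdh3 0.77 above it. The 8 markers of the class summed to 4780 CPM in EMF_AuNPs and 3194 CPM in Control, a log2 ratio of 0.58. Cdh2 was lower in this class, at 7.70 CPM in EMF_AuNPs and 15.6 CPM in Control.

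In microglia Pcdhga6 had 13 UMIs in EMF_AuNPs and 25 in Control, a log2 ratio of 0.73 (-0.25 to 1.86), and Pcdhgc3 had 4 UMIs in EMF_AuNPs and 27 in Control, with -0.76 (-2.94 to 0.55). Cdh23, the tip-link cadherin of hair cells, had 7.24 CPM in EMF_AuNPs and 8.97 CPM in Control microglia, a log2 ratio of -0.28 (-1.41 to 0.66). Of 6 delta protocadherins compared in microglia 3 were lower and 0 higher. The class background was 9.33% higher and 14.8% lower. In haemoglobin-rich barcodes 4 of 6 compared members were lower, and 0 were higher, against 31.5% and 5.27% of all genes, and the median of all genes there was -0.32. Haemoglobin genes held 580185 CPM of this class in EMF_AuNPs and 499457 CPM in Control, which left a smaller share of UMIs to other genes in EMF_AuNPs. The part of this in the lower counts was not tested.

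The partners of classical cadherins were described as 1 list of 25 catenins and junction proteins. In astrocytes 5 of 24 compared were higher and 2 lower, with a median log2 ratio of 0.34 against 0.17 for all genes. The counts of higher and lower genes were 1 and 3 of 25 in oligodendrocytes, 1 and 3 of 21 in microglia, 2 and 1 of 24 in endothelial cells and 8 and 0 of 20 in the choroid plexus. They were 2 and 0 of 4 in border macrophages, 1 and 3 of 15 in pericytes, 2 and 4 of 14 in smooth muscle cells and 0 and 7 of 16 in haemoglobin-rich barcodes. Of all genes compared in a class, the shares higher and lower were 18.7% and 9.08% in astrocytes, 8.13% and 9.75% in oligodendrocytes, 9.33% and 14.8% in microglia, 10.7% and 8.49% in endothelial cells and 30.4% and 5% in the choroid plexus. They were 17.4% and 15.9% in border macrophages, 14.9% and 14.9% in pericytes, 15.5% and 12.7% in smooth muscle cells and 5.27% and 31.5% in haemoglobin-rich barcodes.

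Ctnnb1, beta-catenin, was higher in 6 classes. It had 143 CPM in EMF_AuNPs and 59.2 CPM in Control astrocytes, a log2 ratio of 1.26 (1.06 to 1.48), and 769 CPM in EMF_AuNPs and 461 CPM in Control endothelial cells, with 0.73 (0.66 to 0.81). In pericytes Ctnnb1 had a log2 ratio of -0.23 (-0.80 to 0.31). Ctnna1, alpha-catenin, had 0.17 (-0.01 to 0.36) in astrocytes and -0.27 (-0.39 to -0.15) in endothelial cells. Mllt4, the actin-binding afadin, was lower in astrocytes, with 40.1 CPM in EMF_AuNPs and 63.8 CPM in Control and a log2 ratio of -0.66 (-0.97 to -0.38). Ptprb, the phosphatase that acts on VE-cadherin, had 1185 CPM in EMF_AuNPs and 1577 CPM in Control endothelial cells, a log2 ratio of -0.41 (-0.47 to -0.36).

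Of 22 other cadherin superfamily genes, such as the giant Fat cadherins, the Celsr cadherins of planar polarity and the calsyntenins, 10 were compared in endothelial cells, 1 higher and 4 lower. The counts of higher and lower were 1 and 1 of 9 in astrocytes, 0 and 1 of 8 in oligodendrocytes, 0 and 1 of 7 in microglia and 3 and 0 of 6 in the choroid plexus. None of the 4 compared in pericytes, smooth muscle and haemoglobin-rich barcodes together passed 1.5-fold. Fat1 was higher in astrocytes, with 44.5 CPM in EMF_AuNPs and 26.8 CPM in Control and a log2 ratio of 0.71 (0.39 to 1.07). Clstn3, a synaptic calsyntenin, was lower in oligodendrocytes, with 2.05 CPM in EMF_AuNPs and 5.02 CPM in Control and a log2 ratio of -0.98 (-2.55 to -0.25).

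Summed over all 92 members and all cells, the family held 788 CPM in EMF_AuNPs and 861 CPM in Control, a log2 ratio of -0.13 (-0.15 to -0.10). This ratio also depends on the mix of classes. Oligodendrocytes were 16.8% of kept cells in EMF_AuNPs and 29.9% in Control, and haemoglobin-rich barcodes were 6.80% and 1.38%. Over all cells Pcdh9 had 218 CPM in EMF_AuNPs and 282 CPM in Control, and within oligodendrocytes 626 and 636 CPM. The part of the mix in the summed ratio was not tested.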

How the data were processed

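Both groups were taken from the treatment labels. The authors deposited raw UMI counts for every gene and barcode. Per the submitters' processing notes, these came from Cell Ranger 3.0.2, STAR and mm10. The annotation used is not given in the sources used here. A minimum of 500 UMIs and 250 genes per barcode left out 7 barcodes in EMF_AuNPs and 158 in Control. The files hold 0 genes with a symbol starting mt-, so no mitochondrial filter was run.

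A barcode joined the class with the most markers detected, at least 3 and at least 2 more than any other class, out of 19 classes with 148 marker genes, 3 of them missing from the files. Barcodes with at least 20% haemoglobin UMIs entered no other class. The lead required of a class keeps out barcodes with markers of several classes, and no doublet caller was run. Of EMF_AuNPs astrocytes 84 had exactly 3 markers and 246 a lead of exactly 2, as had 362 and 581 Control astrocytes. Clustering (scanpy 1.11.5, leidenalg 0.10.2) used 2000 variable genes without the members, 30 components, 15 neighbours, resolution 1 and seed 1.

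UMIs were summed per class and library and divided by the class total. Intervals are exact Poisson for CPM, exact conditional binomial for ratios, Clopper-Pearson for shares and Newcombe for differences of shares. UMIs of 1 library are not replicates of a condition. The script was tested on simulated data. Positions and shared bases come from GENCODE vM21, which held 91 members by symbol. Named members were the most abundant 2 per class, the 3 highest and 3 lowest past 1.5-fold among members at 20% or more of their own highest CPM, and those past it in opposite directions. Other members and list genes in the text were chosen after their values were seen. Members, lists and markers were chosen with earlier results of these data known.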

Additional observations from a re-analysis of the deposited data

Results flagged for a closer look

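Pcdh9 was past 1.5-fold in opposite directions in different classes. Its log2 ratio was 1.15 in pericytes, with 34 UMIs in EMF_AuNPs (118 CPM) and 27 UMIs in Control (52.6 CPM), and its interval was 0.39 to 1.95. With clusters in place of the marker classes it was 0.09 (-0.41 to 0.57), with 56 UMIs in EMF_AuNPs (145 CPM) and 104 UMIs in Control (137 CPM), and so no longer past 1.5-fold. The log2 ratio was -0.78 in smooth muscle cells, with 16 UMIs in EMF_AuNPs and 33 UMIs in Control. With clusters in place of the marker classes it was -0.93 (-1.57 to -0.35) there, with 33 UMIs in EMF_AuNPs and 87 UMIs in Control. In haemoglobin-rich barcodes the log2 ratio was -0.66, with 64 UMIs in EMF_AuNPs and 76 UMIs in Control. The median of all genes in haemoglobin-rich barcodes was -0.32. All these Pcdh9 levels lie below the 626 CPM in EMF_AuNPs and 636 CPM in Control oligodendrocytes. Pcdhga6 had a log2 ratio of 0.73 in microglia, with 13 UMIs in EMF_AuNPs and 25 UMIs in Control, and of -1.0 in astrocytes, with 19 UMIs in EMF_AuNPs and 62 UMIs in Control. The difference between classes was not tested for either gene.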

How the results depend on the processing

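No paired analysis was possible because each group is 1 library. The 9 higher pairs became 3 with 10 CPM added, 3 with at least 100 UMIs of a gene and 24 with at least 10 UMIs. These were 2.17% of 138, 5.66% of 53 and 10.0% of 239 pairs, against 6.83%, 12.2% and 16.1% of all genes' pairs. The 38 lower pairs became 12, 10 and 61 under the same settings, 17 where no second class could have 2 markers, and 16 with cells thinned to 1000 UMIs. The 22 lower gamma pairs became 6, 5, 34, 7 and 11 in that order of settings. With fewer UMIs or cells, fewer pairs were compared. In that order, 138, 53, 239, 60 and 69 pairs were compared, of which 35, 6, 73, 10 and 14 were gamma pairs. The lower share was 8.70%, 18.9%, 25.5%, 28.3% and 23.2% of the members' pairs. It was 5.95%, 9.12%, 14.4%, 18.4% and 13.6% of all genes' pairs. Of the gamma pairs 17.1%, 83.3%, 46.6%, 70% and 78.6% were lower. Without haemoglobin-rich barcodes, chosen after seeing the data, 9 of 132 pairs were higher and 34 lower, against 14.9% and 10.3% of all genes' pairs. The log2 ratio of the gamma sum ran from -1.72 to -1.35 in astrocytes and from -1.36 to -0.87 in oligodendrocytes over all settings. For single named pairs, 263 alternatives gave a log2 ratio inside the main counting interval and 14 gave one outside it. This interval is wide where UMIs are few, so a pair could lose its call and stay inside. Settings that change only the minimum UMIs of a gene leave a ratio as it was, so they could not move it. The difference in the share of astrocytes with a Pcdh10 UMI was 4.11 percentage points without thinning, and that of pericytes with a Pcdh18 UMI was -0.337 points with cells thinned to 500 UMIs, both opposite to the values at 1000 UMIs, which were -5.25 and 8.71. The cause was not tested for Pcdh18, and depth differs between the libraries where no thinning was made. Depth limits every gamma gene to 4 to 561 UMIs per library, and smaller classes could show only large differences.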
